A study of Lactuca sativa with 6 samples.

Results

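Lignin and secondary wall genes were followed in young leaves of lettuce (*Lactuca sativa*), in plants overexpressing *LsAP2* (*LsAP2*-OE) and in wild type (WT). A gene was a member if its Swiss-Prot description, the name of the closest protein in that database, was a peroxidase, a laccase, a dirigent protein, a subunit of cellulose synthase A or an enzyme of the general phenylpropanoid and monolignol pathway. The deposited table held 35 such genes among its 2579 genes, of which 1949 carried a description. They were 3 genes of the entry to the phenylpropanoid pathway, 2 of the shikimate ester and methylation steps, 2 monolignol reductases, 13 laccases, 13 peroxidases, 1 dirigent protein and 1 cellulose synthase. For 25 of them the closest protein was from *Arabidopsis thaliana*, so a name gives likeness to that protein and not a function shown in lettuce.

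Both groups were 1-month-old plants, and the paper names cultivar S39 as its material. There were 3 RNA-seq libraries of each genotype, from biological replicates. The *LsAP2*-OE plants carried the coding sequence of *LsAP2*, which encodes an APETALA2 transcription factor, behind the cauliflower mosaic virus 35S promoter, which is active in most tissues. The sources used here do not give the *LsAP2*-OE line or lines behind the 3 replicates, so what is particular to a line and what is due to *LsAP2* cannot be told apart.

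Lignin is a polymer of phenolic alcohols (monolignols) that stiffens and waterproofs secondary cell walls, in leaves mainly those of the xylem vessels and fibres in the veins. Phenylalanine is converted in the cytosol to CoA esters of hydroxycinnamic acids, which are methylated and reduced to monolignols. In the wall, laccases use oxygen and class III peroxidases use hydrogen peroxide to oxidise the monolignols to radicals, which couple into lignin. The same walls hold cellulose made by a set of cellulose synthase subunits that differs from the set of growing primary walls, and acetylated xylan.

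Each value below is a normalized expression value that the authors gave for a gene in a library. How it was normalized is not named and depth is unknown, so values were compared between groups within a gene, and no gene is called more or less expressed than another. *LsAP2* itself (Lsat_1_v5_gn_3_89681) had values of 214, 209 and 224 in *LsAP2*-OE, against 25.3, 27.9 and 30.5 in WT. Its log2 fold change was 2.95 (standard error, SE, 0.078; limma adjusted p = 2.15e-08), a value that holds reads of both the transgene and the native gene. The values of a library summed to 103060 to 108937 over the table in *LsAP2*-OE and to 97790 to 112997 in WT, and 15 to 17 genes were listed at 0 in an *LsAP2*-OE library against 22 to 33 in a WT library. Of the markers of leaf mesophyll, 6 Rubisco small chain genes and 8 chlorophyll a-b binding genes were in the table, and none was at 0 in any library.

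Of the 35 lignin and secondary wall genes, 33 were higher and 2 were lower in *LsAP2*-OE plants compared with WT. A gene was called at an adjusted p below 0.01 from limma on log2(value + 0.1), with p-values adjusted over all 2579 genes. In the whole table, 98.7% of the genes were called by this rule, 59.1% as higher and 39.6% as lower. Among the genes that carry a description, 62.0% were higher and 36.9% lower. The table holds only genes already selected by the authors on these 6 libraries, at a minimum fold change of 2. Members that did not change, or changed less, therefore cannot appear, and neither the counts nor the p-values are independent evidence. For every member the values of the groups did not overlap, with 33 above and 2 below WT. The share of all genes in the table without overlap was 99.4%. The median log2 fold change of the members was 1.24, against 1.03 over the table. The members that were higher had a median of 1.26, against 1.39 for all genes called higher. In whole young leaves, a larger share of vein cells and more RNA of these genes per cell cannot be told apart. For 1 gene with 3 values a group, the smallest p of an exact permutation test is 0.1.

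**Figure D1:**
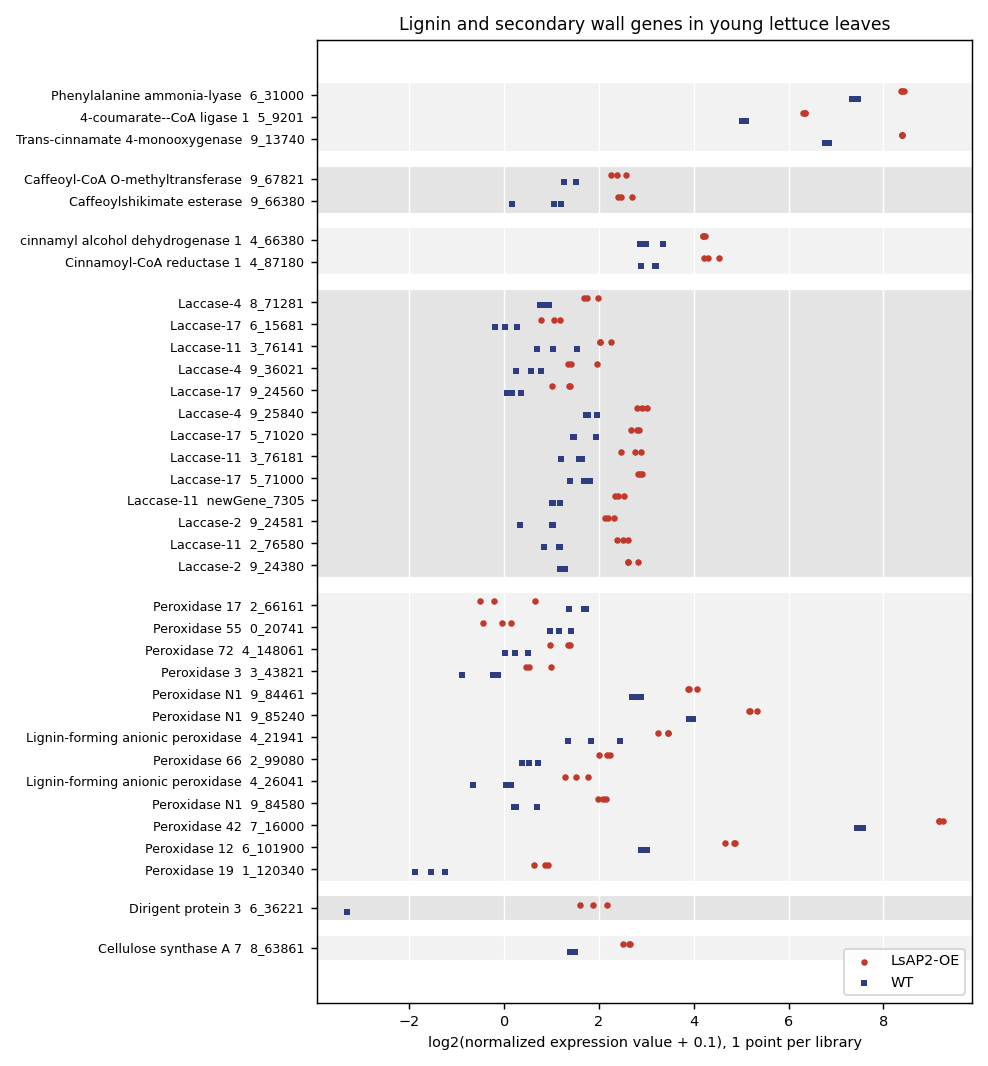
Normalized expression value of each of the 35 genes in each library, as log2(value + 0.1) on the x axis, grouped by role, with *LsAP2*-OE libraries as circles and WT libraries as squares. The circles lie to the right of the squares for 33 genes and to the left for Peroxidase 17 and Peroxidase 55. The squares of Dirigent protein 3 mark values listed at 0.

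The 3 genes of the entry to the pathway were all higher, beside 59.1% of the genes in the whole table. Their libraries lay close together within each group. Phenylalanine ammonia-lyase (PAL, Lsat_1_v5_gn_6_31000), which removes ammonia from phenylalanine to give cinnamic acid, had values of 332, 337 and 344 in *LsAP2*-OE, against 161, 168 and 177 in WT. The lowest *LsAP2*-OE library was 1.88-fold above the highest WT library. This gave a log2 fold change of 1.00 (SE 0.060, limma adjusted p = 9.25e-07). *Trans*-cinnamate 4-monooxygenase (C4H, Lsat_1_v5_gn_9_13740), the cytochrome P450 that hydroxylates cinnamic acid, had values of 334, 335 and 336 in *LsAP2*-OE, against 112, 109 and 115 in WT. The *LsAP2*-OE libraries were close to each other, at 335 ± 1.34 against 112 ± 3.26 in WT (SD, n = 3 each), and the log2 fold change was 1.58 (SE 0.054, limma adjusted p = 7.81e-08). 4-coumarate--CoA ligase 1 (4CL, Lsat_1_v5_gn_5_9201), which forms the CoA ester, had values of 81.7, 80.6 and 78.7 in *LsAP2*-OE, against 33.8, 32.3 and 34.3 in WT. All *LsAP2*-OE libraries were thus above all WT libraries, with a log2 fold change of 1.26 (SE 0.056, limma adjusted p = 2.41e-07).

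At the shikimate ester and methylation steps, both genes of the table were higher, beside 59.1% of the genes in the whole table. Caffeoylshikimate esterase (Lsat_1_v5_gn_9_66380), which releases caffeic acid from its shikimate ester, had values of 6.37, 5.45 and 5.16 in *LsAP2*-OE, against 2.19, 1.01 and 1.96 in WT. WT replicate 2 was the low one of its group, and the groups did not overlap. The log2 fold change of 1.72 (SE 0.27, limma adjusted p = 2.72e-04) was larger than those of the entry genes but less precise. Caffeoyl-CoA O-methyltransferase (Lsat_1_v5_gn_9_67821), which adds the methoxyl group of feruloyl-CoA, had values of 5.06, 4.66 and 5.85 in *LsAP2*-OE, against 2.75, 2.29 and 2.77 in WT. Its means were 5.19 ± 0.607 in *LsAP2*-OE and 2.60 ± 0.273 in WT (SD, n = 3 each). At 0.97 (limma adjusted p = 2.25e-04), its log2 fold change was near the fold limit of the table.

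Both reductases that finish the monolignols were higher, beside 59.1% of the genes in the whole table. Cinnamoyl-CoA reductase 1 (Lsat_1_v5_gn_4_87180), which reduces the CoA esters to aldehydes, had values of 18.6, 19.5 and 23.1 in *LsAP2*-OE, against 7.27, 8.96 and 9.04 in WT. *LsAP2*-OE replicate 3 was the highest library, and the log2 fold change was 1.27 (SE 0.12, limma adjusted p = 1.21e-05). A second description of this gene in the table, from the NR protein database, is a dihydroflavonol 4-reductase, an enzyme of the flavonoid branch from a related family, so its place in the lignin branch is uncertain. Probable cinnamyl alcohol dehydrogenase 1 (Lsat_1_v5_gn_4_66380), named for the enzyme that reduces the aldehydes to alcohols, had values of 18.8, 18.3 and 18.1 in *LsAP2*-OE, against 10.02, 7.19 and 7.87 in WT. The *LsAP2*-OE libraries were closer together (18.4 ± 0.378) than the WT libraries (8.36 ± 1.48, SD, n = 3 each). Its log2 fold change was 1.14 (SE 0.12, limma adjusted p = 2.60e-05).

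**Figure D2:**
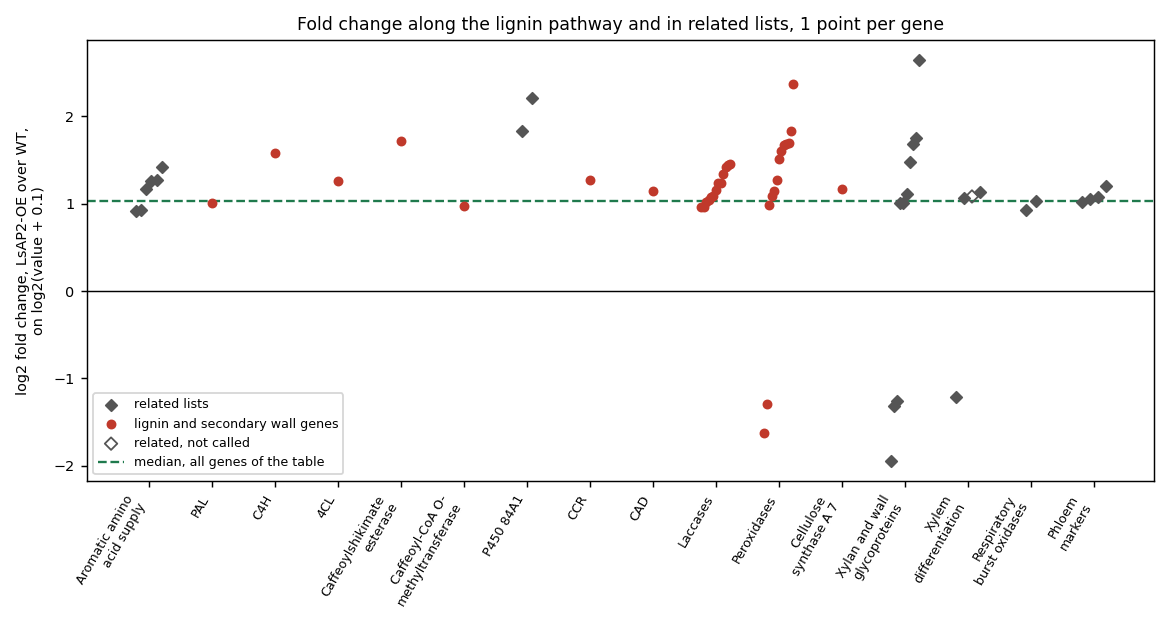
Log2 fold change of *LsAP2*-OE over WT on the scale log2(value + 0.1), 1 point per gene, with the steps of the lignin pathway and related gene lists along the x axis. Circles are the lignin and secondary wall genes and diamonds the genes of related lists, and the open diamond is the gene that was not called. The dashed line is the table's median of 1.03. The median of the table's genes called higher, 1.39, is not drawn. In the lists drawn, the steps from PAL to the laccases hold points above 0 alone, while points below 0 occur among the peroxidases, the xylan and wall glycoprotein genes and the xylem differentiation genes. Dirigent protein 3, listed at 0 in WT, and the lignan and related reductases are not drawn.

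Genes on either side of these steps were also in the table. The list of aromatic amino acid supply, the plastid route that makes phenylalanine, had 6 genes. All 6 were higher, beside 59.1% of the genes in the whole table, with log2 fold changes of 0.92 to 1.42. The one with the largest change (Lsat_1_v5_gn_5_33881), a phospho-2-dehydro-3-deoxyheptonate aldolase at the start of the shikimate route, had a mean of 314 ± 2.88 in *LsAP2*-OE and 117 ± 2.70 in WT (SD, n = 3 each; limma adjusted p = 1.05e-07). Arogenate dehydratase/prephenate dehydratase 6 (Lsat_1_v5_gn_2_95461), of the last steps to phenylalanine, had a mean of 77.9 ± 2.11 in *LsAP2*-OE and 32.3 ± 1.94 in WT (SD, n = 3 each), a log2 fold change of 1.27. A pair of genes was described as cytochrome P450 84A1, the Arabidopsis ferulate hydroxylase that leads to syringyl lignin. With the added 0.1, the pair had the largest fold changes among the enzymes of monolignol synthesis drawn here, which was not tested. One of them (Lsat_1_v5_gn_3_73580) had values of 12.8, 14.6 and 12.3 in *LsAP2*-OE, against 3.85, 3.77 and 3.34 in WT, a log2 fold change of 1.83 (limma adjusted p = 1.01e-06). The other (Lsat_1_v5_gn_4_152320) had a mean of 4.14 ± 0.639 in *LsAP2*-OE and 0.815 ± 0.0725 in WT (SD, n = 3 each), a log2 fold change of 2.20 (limma adjusted p = 5.39e-06). With an added 1, the log2 fold change of this gene was 1.495, below the 1.572 of C4H.

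All 13 laccase genes were higher, beside 59.1% of the genes in the whole table. Their log2 fold changes were 0.97 to 1.45, with a median of 1.15 against 1.39 for all genes called higher. The 13 genes were described as Laccase-2, Laccase-4, Laccase-11 or Laccase-17. The last 3 of these names belong to the Arabidopsis laccases known for polymerising lignin in the stem. In these libraries every laccase gene had a mean value under 10.

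The pair described as Laccase-2 had a median log2 fold change of 1.44, the highest of the 4 descriptions. The gene Lsat_1_v5_gn_9_24380 had values of 5.997, 6.98 and 6.03 in *LsAP2*-OE, against 2.15, 2.34 and 2.26 in WT. Its WT libraries lay within a narrow range, and the log2 fold change was 1.45 (SE 0.13, limma adjusted p = 7.51e-06). The gene Lsat_1_v5_gn_9_24581, which the NR description calls a laccase-17, had values of 4.27, 4.43 and 4.88 in *LsAP2*-OE, against 1.16, 1.94 and 1.90 in WT. WT replicate 1 was lowest, and the log2 fold change was 1.42 (SE 0.21, limma adjusted p = 1.92e-04).

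The 4 genes described as Laccase-11 had a median log2 fold change of 1.29. The gene Lsat_1_v5_gn_2_76580 had values of 5.10, 5.97 and 5.62 in *LsAP2*-OE, against 1.69, 2.14 and 2.14 in WT, and the new gene Lactuca_sativa_newGene_7305 had 5.19, 4.92 and 5.62 in *LsAP2*-OE, against 1.94, 1.91 and 2.17 in WT. Their log2 fold changes were 1.44 (limma adjusted p = 2.18e-05) and 1.34 (limma adjusted p = 1.67e-05). The other two, with neighbouring IDs, were less even across libraries. The gene Lsat_1_v5_gn_3_76181 had values of 5.41, 7.33 and 6.70 in *LsAP2*-OE, against 2.19, 2.90 and 3.03 in WT, a log2 fold change of 1.23. The gene Lsat_1_v5_gn_3_76141 had values of 4.65, 3.97 and 3.96 in *LsAP2*-OE, against 1.51, 2.79 and 1.93 in WT. WT replicate 2 came nearest to the *LsAP2*-OE libraries there, and the ratio of the lowest *LsAP2*-OE to the highest WT library, 1.42, was the smallest of the 35 genes. The log2 fold change of that gene was 1.02 (SE 0.22, limma adjusted p = 0.00189).

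The 4 genes described as Laccase-17 had a median log2 fold change of 1.12. The neighbours Lsat_1_v5_gn_5_71000 and Lsat_1_v5_gn_5_71020 had similar profiles. The first had values of 7.22, 6.97 and 7.35 in *LsAP2*-OE, against 2.50, 3.42 and 3.11 in WT, and the second had 6.82, 6.30 and 7.08 in *LsAP2*-OE, against 2.62, 3.71 and 2.68 in WT. WT replicate 2 was the highest WT library for both, and the log2 fold changes were 1.24 and 1.15 (limma adjusted p = 3.58e-05 and 1.15e-04). The gene Lsat_1_v5_gn_9_24560 had values of 1.92, 2.48 and 2.53 in *LsAP2*-OE, against 0.935, 1.17 and 1.01 in WT, a log2 fold change of 1.08. The gene Lsat_1_v5_gn_6_15681 had values of 2.17, 1.97 and 1.60 in *LsAP2*-OE, against 0.912, 0.777 and 1.10 in WT, a log2 fold change of 0.97 (limma adjusted p = 0.00171). In these last genes the groups were separate but the values low.

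The 3 genes described as Laccase-4 had the lowest median of the laccase descriptions, 1.04. The gene Lsat_1_v5_gn_9_25840 had values of 7.92, 7.44 and 6.86 in *LsAP2*-OE, against 3.81, 3.32 and 3.19 in WT, a log2 fold change of 1.09 (limma adjusted p = 3.30e-05). The gene Lsat_1_v5_gn_9_36021 had values of 2.42, 2.55 and 3.81 in *LsAP2*-OE, against 1.08, 1.38 and 1.62 in WT. *LsAP2*-OE replicate 3 stood above the other two of its group, and the log2 fold change was 1.04 (SE 0.23, limma adjusted p = 0.00216). The gene Lsat_1_v5_gn_8_71281 had values of 3.26, 3.11 and 3.85 in *LsAP2*-OE, against 1.81, 1.67 and 1.59 in WT, a log2 fold change of 0.97 (limma adjusted p = 3.34e-04). The intervals of the laccases overlapped widely, and differences between the 4 descriptions were not tested.

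The peroxidases were the group with the widest range and the sole group with genes that were lower. Of 13 genes, 11 were higher, with log2 fold changes of 0.99 to 2.36, and 2 were lower. In the whole table, 59.1% of the genes were higher and 39.6% lower. Peroxidase 19 (Lsat_1_v5_gn_1_120340) had values of 1.71, 1.80 and 1.44 in *LsAP2*-OE, against 0.321, 0.171 and 0.242 in WT. Its means were 1.65 ± 0.187 in *LsAP2*-OE and 0.244 ± 0.0753 in WT (SD, n = 3 each), a ratio of 6.75, the largest among members with values above 0 in WT. Its log2 fold change of 2.36 (SE 0.23, limma adjusted p = 1.44e-05) is smaller than that ratio because the value of 0.1 added to each library is large beside the WT values.

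Peroxidase 42 and Peroxidase 12 combined a large fold change with a small error. Peroxidase 42 (Lsat_1_v5_gn_7_16000) had values of 574, 607 and 574 in *LsAP2*-OE, against 173, 180 and 190 in WT. Every *LsAP2*-OE library was at least 3.03-fold above every WT library. The means were 585 ± 19.2 in *LsAP2*-OE and 181 ± 8.43 in WT (SD, n = 3 each), and the log2 fold change was 1.69 (SE 0.063, limma adjusted p = 1.04e-07). Peroxidase 12 (Lsat_1_v5_gn_6_101900) had values of 24.98, 29.0 and 28.8 in *LsAP2*-OE, against 7.94, 7.24 and 7.75 in WT. The gap between the groups was 3.14-fold, and the log2 fold change was 1.84 (SE 0.087, limma adjusted p = 3.09e-07).

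A pair of genes was described as the lignin-forming anionic peroxidase of *Nicotiana sylvestris*, an enzyme named for its ability to polymerise monolignols. The gene Lsat_1_v5_gn_4_21941 had values of 10.8, 9.38 and 10.8 in *LsAP2*-OE, against 2.44, 3.43 and 5.35 in WT. The WT libraries were widely spread with WT replicate 3 the highest, while the *LsAP2*-OE libraries were close together, and the log2 fold change was 1.51 (SE 0.25, limma adjusted p = 3.65e-04). The gene Lsat_1_v5_gn_4_26041 had values of 3.30, 2.74 and 2.34 in *LsAP2*-OE, against 0.531, 0.932 and 1.01 in WT, a log2 fold change of 1.68 (limma adjusted p = 2.54e-04). For both genes the groups did not overlap.

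Of 3 genes described as Peroxidase N1 of tobacco, Lsat_1_v5_gn_9_85240 had values of 35.8, 39.9 and 36.4 in *LsAP2*-OE, against 15.8, 14.9 and 15.8 in WT, a log2 fold change of 1.27 (limma adjusted p = 6.69e-07). The gene Lsat_1_v5_gn_9_84461 had values of 16.6, 14.6 and 14.9 in *LsAP2*-OE, against 7.0, 7.33 and 6.37 in WT, a log2 fold change of 1.14. The third, Lsat_1_v5_gn_9_84580, had values of 3.82, 4.33 and 4.13 in *LsAP2*-OE, against 1.09, 1.06 and 1.51 in WT, a log2 fold change of 1.69 (limma adjusted p = 2.62e-05). All were separate between the groups. Peroxidase 66 (Lsat_1_v5_gn_2_99080) had values of 4.63, 4.41 and 3.90 in *LsAP2*-OE, against 1.34, 1.19 and 1.54 in WT, a log2 fold change of 1.60 (limma adjusted p = 1.88e-05). Peroxidase 72 (Lsat_1_v5_gn_4_148061), whose Arabidopsis counterpart takes part in lignification, had values of 1.86, 2.43 and 2.51 in *LsAP2*-OE, against 1.31, 0.911 and 1.07 in WT. *LsAP2*-OE replicate 1 was the lowest of its group, 1.42-fold above the highest WT library, and the log2 fold change was 0.99 (SE 0.21, limma adjusted p = 0.00153).

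Peroxidase 3 (Lsat_1_v5_gn_3_43821) was the least certain member. Its values were 1.89, 1.35 and 1.27 in *LsAP2*-OE, against 0.436, 0.751 and 0.807 in WT. The log2 fold change was 1.08 (SE 0.27), and its adjusted p of 0.00392 from limma was the highest of the 35 genes. Without *LsAP2*-OE replicate 1, its highest library, the log2 fold change was 0.92 and the adjusted p from limma 0.0172, so that the call was lost.

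The peroxidases that fell were Peroxidase 17 and Peroxidase 55. Peroxidase 17 (Lsat_1_v5_gn_2_66161), whose Arabidopsis counterpart has been linked to the formation of lignified tissue, had values of 0.599, 1.46 and 0.760 in *LsAP2*-OE, against 3.13, 3.22 and 2.48 in WT. *LsAP2*-OE replicate 2 was the highest of its group but remained below all WT libraries. The means were 0.938 ± 0.456 in *LsAP2*-OE and 2.94 ± 0.407 in WT (SD, n = 3 each), and the log2 fold change was −1.63 (SE 0.30, limma adjusted p = 7.36e-04). Peroxidase 55 (Lsat_1_v5_gn_0_20741) had values of 0.636, 0.869 and 1.00 in *LsAP2*-OE, against 2.56, 2.12 and 1.85 in WT. Its groups did not overlap, and the log2 fold change was −1.29 (SE 0.22, limma adjusted p = 4.89e-04).

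**Figure D3:**
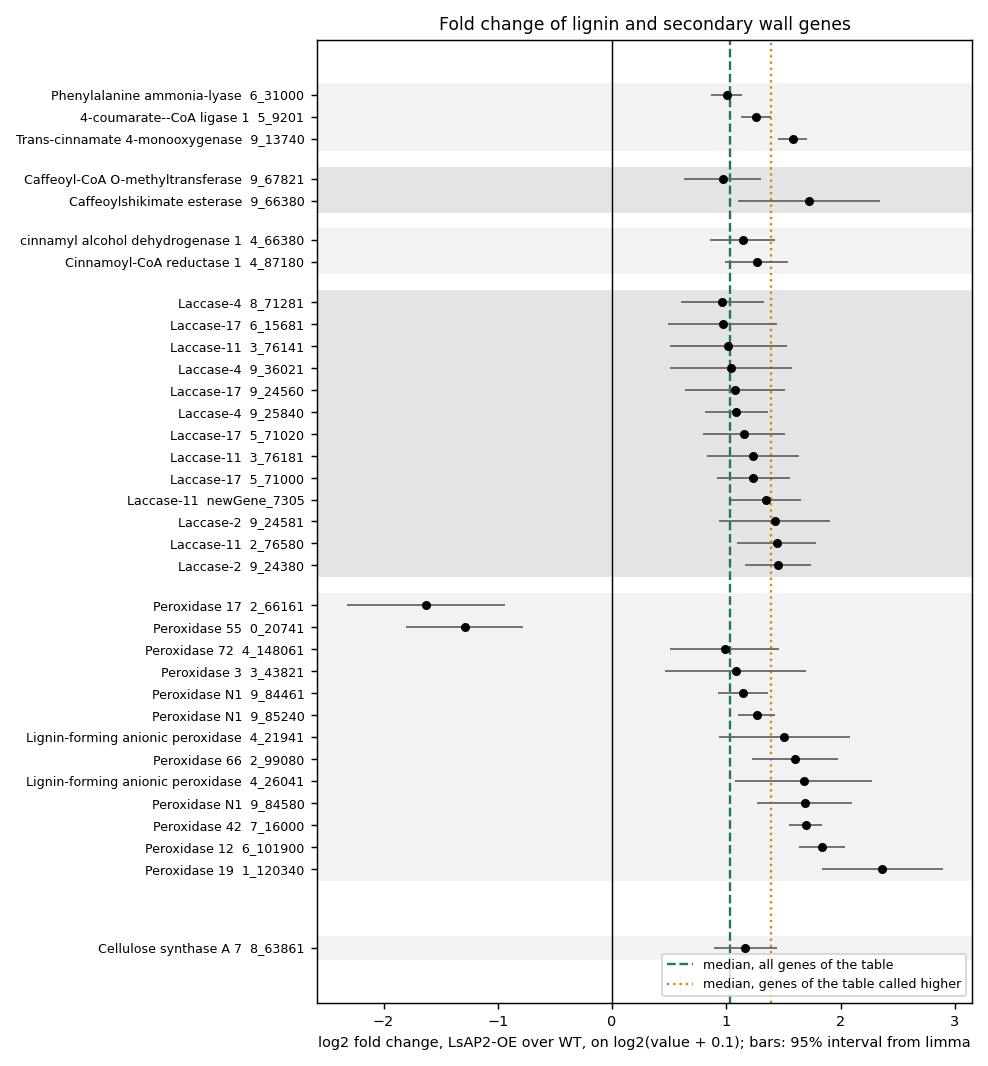
Log2 fold change of *LsAP2*-OE over WT for each lignin and secondary wall gene, on the scale log2(value + 0.1), with points for the estimate and bars for its 95% interval from limma, and genes grouped by role. The dashed line is the median of the table, 1.03, and the dotted line that of the table's genes called higher, 1.39. The laccases lie between 0.97 and 1.45, the peroxidases between −1.63 and 2.36, and Dirigent protein 3, listed at 0 in WT, is not drawn.

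Dirigent protein 3 (Lsat_1_v5_gn_6_36221) was the sole member listed at 0 in a whole group. Dirigent proteins have no oxidising activity of their own and steer the coupling of phenoxy radicals. Its values were 2.94, 3.55 and 4.36 in *LsAP2*-OE, and it was listed at 0 in all 3 WT libraries. It was called higher (limma adjusted p = 1.58e-07), and no fold is given because depth is unknown. The WT values of 0 had no spread, so the spread within this gene came from the *LsAP2*-OE libraries alone. For that p, limma also drew on the mean-variance trend of all genes. The NR description names it as a protein like dirigent protein 22. Without it, the median log2 fold change of the members that were higher was 1.25.

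Genes described as lignan and related reductases, which act on the coupled products or on flavonoid-like relatives, numbered 5. Of these, 4 were higher and 1 was lower, beside 59.1% higher and 39.6% lower in the whole table. An isoflavone reductase homolog (Lsat_1_v5_gn_8_47821) had a mean of 11.6 ± 0.735 in *LsAP2*-OE and 1.40 ± 0.139 in WT (SD, n = 3 each), a log2 fold change of 2.97 (limma adjusted p = 2.21e-07). A secoisolariciresinol dehydrogenase (Lactuca_sativa_newGene_4040) was listed at 0 in all 3 *LsAP2*-OE libraries, against 6.02, 7.83 and 7.44 in WT.

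The single cellulose synthase of the table was higher. Cellulose synthase A catalytic subunit 7 (Lsat_1_v5_gn_8_63861), one of the Arabidopsis subunits of the secondary wall, had values of 6.16, 6.09 and 5.61 in *LsAP2*-OE, against 2.54, 2.72 and 2.52 in WT. The libraries lay close together within each group, with means of 5.95 ± 0.303 in *LsAP2*-OE and 2.60 ± 0.110 in WT (SD, n = 3 each). Its log2 fold change was 1.17 (SE 0.12, limma adjusted p = 1.87e-05).

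Of 10 genes for xylan and wall glycoproteins, 7 were higher and 3 lower, beside 59.1% higher and 39.6% lower in the whole table, and a difference of this list from the lignin genes or the table was not tested. Of the 6 trichome birefringence-like genes among them, a family that includes xylan acetyltransferases, 4 were higher and 2 lower. The gene with the largest rise, described as trichome birefringence-like 34 (Lsat_1_v5_gn_8_103360), had a mean of 5.06 ± 0.675 in *LsAP2*-OE and 0.753 ± 0.288 in WT (SD, n = 3 each), a log2 fold change of 2.64 (limma adjusted p = 1.22e-05). The gene with the largest fall, trichome birefringence-like 2 (Lsat_1_v5_gn_3_28640), had a mean of 1.17 ± 0.208 in *LsAP2*-OE and 4.81 ± 0.968 in WT (SD, n = 3 each), a log2 fold change of −1.94 (limma adjusted p = 2.91e-05). Another gene described as trichome birefringence-like 34 (Lsat_1_v5_gn_9_36120), named after its values were seen, had a log2 fold change of −1.32, so genes of 1 description differed in direction.

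Genes of xylem differentiation in the table were few. Metacaspase-9 (Lsat_1_v5_gn_8_101661), which clears the contents of dying vessel cells in Arabidopsis, had a mean of 2.72 ± 0.511 in *LsAP2*-OE and 1.24 ± 0.237 in WT (SD, n = 3 each), a log2 fold change of 1.07 (limma adjusted p = 0.00129). Xylem serine proteinase 1 (Lsat_1_v5_gn_3_135061), named after its values were seen, was also higher, with a log2 fold change of 1.14. Thermospermine synthase *ACAULIS5* (Lsat_1_v5_gn_5_148780), which holds back vessel maturation in Arabidopsis, had values of 11.8, 10.3 and 8.998 in *LsAP2*-OE, against 23.0, 24.8 and 23.9 in WT, a log2 fold change of −1.21 (limma adjusted p = 7.25e-06). The gene described as NAC domain-containing protein 7 (Lsat_1_v5_gn_2_128940), a vessel factor in Arabidopsis and also named after its values were seen, did not pass. Its values of 2.26, 0.956 and 1.95 in *LsAP2*-OE overlapped with 0.781, 1.13 and 0.398 in WT (log2 fold change 1.08, limma adjusted p = 0.0284).

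Peroxidases need hydrogen peroxide, which can come from superoxide made by respiratory burst oxidases. Both genes of that list were described as respiratory burst oxidase homolog protein C. Both were higher, beside 59.1% of the genes in the whole table. One (Lsat_1_v5_gn_5_9460) had a mean of 25.6 ± 0.895 in *LsAP2*-OE and 13.4 ± 0.975 in WT (SD, n = 3 each), a log2 fold change of 0.93 (limma adjusted p = 5.91e-06). The other (Lsat_1_v5_gn_1_89100) had a mean of 3.81 ± 0.265 in *LsAP2*-OE and 1.87 ± 0.585 in WT (SD, n = 3 each), a log2 fold change of 1.03 (limma adjusted p = 0.00149).

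Markers of other tissues of the leaf also differed between the groups. The 4 markers of phloem, the other conducting tissue of the vein, were all higher with log2 fold changes of 1.02 to 1.20. In the whole table, 59.1% of the genes were higher and 39.6% lower. Sucrose transport protein SUC2 (Lsat_1_v5_gn_1_6801), which loads sucrose into the phloem, had a mean of 129 ± 3.90 in *LsAP2*-OE and 61.4 ± 4.26 in WT (SD, n = 3 each). A *PHLOEM PROTEIN 2-LIKE A1* gene (Lsat_1_v5_gn_5_36341) had a log2 fold change of 1.20 (limma adjusted p = 0.00195). Of the mesophyll markers, all 6 Rubisco small chain genes were higher, with log2 fold changes of 1.15 to 7.39. All 8 chlorophyll a-b binding genes were lower, with log2 fold changes of −1.60 to −1.13. The Rubisco genes with the largest change, Lsat_1_v5_gn_2_79541 and Lsat_1_v5_gn_2_79501, had log2 fold changes of 7.39 and 6.41. The WT values of Lsat_1_v5_gn_2_79541, at 0.095, 0.111 and 0.177, were near the added 0.1. Its log2 fold change was 5.10 with an added 1 and 8.14 with an added 0.01. None of these markers was at 0 in any library. Of the usual xylem markers, a secondary wall cellulose synthase and laccases are members themselves. Metacaspase-9 and Xylem serine proteinase 1, given above, are not members. The part of tissue makeup in the values of the lignin genes was not tested.

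Members with larger normalized values had smaller errors. The 4 members with a mean value of at least 50 had a median standard error of 0.058 on the log2 scale, the 8 members with a mean of 5 to 50 had 0.12, and the 23 members with a mean under 5 had 0.21. With any 1 library left out, 32 to 33 members were higher and 2 were lower. The whole table then had 1472 to 1501 of its 2579 genes higher and 996 to 1008 lower. All its genes were selected by the authors on these libraries, so most calls could be foreseen to remain. Leaving out Dirigent protein 3, *LsAP2*-OE replicates 1, 2 and 3 were the highest library of their group for 12, 9 and 13 of 34 members. These were 35.3, 26.5 and 38.2%, beside 32, 37 and 31% of all genes in the table. WT replicates 1, 2 and 3 were highest for 8, 10 and 16 members. These were 23.5, 29.4 and 47.1%, beside 33.2, 36.2 and 30.6% of all genes, and the differences were not tested.

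Genes of the same family with nearby IDs may share reads, since the sources used here do not name the program that counted them or its treatment of reads with several matches. For 6 such pairs among the laccases and peroxidases, including 1 pair of a Laccase-2 and a Laccase-17 gene, the ratio between the copies was taken in each library, and for all 6 the ratios overlapped between the groups. The ratio of the Laccase-17 genes Lsat_1_v5_gn_5_71000 to Lsat_1_v5_gn_5_71020 was 1.06, 1.11 and 1.04 in *LsAP2*-OE, against 0.955, 0.923 and 1.16 in WT. The ratio of the Peroxidase N1 genes Lsat_1_v5_gn_9_84461 to Lsat_1_v5_gn_9_84580 was 4.35, 3.36 and 3.60 in *LsAP2*-OE, against 6.45, 6.93 and 4.23 in WT, where only *LsAP2*-OE replicate 1 reached the lowest WT library. Both genes of each pair were higher and had passed the same fold limit, so overlapping ratios cannot show whether reads were shared. The values of single copies remain uncertain where they share reads.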

How the data were processed

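RNA-seq libraries were made from young leaves, 3 of *LsAP2*-OE and 3 of WT. Reads were aligned by the authors with HISAT2 on the BMKCloud platform, and genes with an FDR below 0.01 and a minimum fold change of 2 by DESeq were kept. HISAT is also in the submitters' processing notes. The sources used here do not give versions, quantifier or genome build. The deposited signal is 1 normalized expression value per gene and library, for the genes the authors called alone. Columns with the authors' FDR (a p-value) and the authors' log2 fold change were not used. Low values shared no common step within a library (9 to 12.5% of the lowest values lay within 0.05 of a whole multiple of the lowest), so neither reads nor depth could be recovered.

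Values were compared with limma 3.58.1 in R 4.3.3 on log2(value + 0.1), with a mean-variance trend, no filter and no replicate block, and with Benjamini-Hochberg adjustment over all 2579 genes of the table. The constant of 0.1 understates the change of low genes. Tables were read with data.table version 1.17.8 in R, and with pandas 2.3.3 and numpy 2.4.6 in Python 3.11.15, and figures were drawn with matplotlib 3.10.9. The procedure was tested on simulated data in which most genes did not change. Nearly all genes of this table were called, so that test does not bear on the calls here. The numbers of the replicates did not pair the libraries: deviations from the group mean of same-numbered libraries correlated at −0.014, −0.039 and 0.014 across genes.

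Members were matched by words in the Swiss-Prot description. All members were named, and of each related list up to 2 called genes by absolute log2 fold change, given a mean value of 1 or more and no overlap. The members, lists, rule and alternatives were chosen with earlier results of these data known. No gene ID of these data had a match in RefSeq's lettuce genes (0 matches), so no coordinates or sequences are given.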

Additional observations from a re-analysis of the deposited data

How the results depend on the processing

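The counts of members called were recomputed with pseudocounts of 1 and 0.01, without the mean-variance trend, with values scaled to the table total, with a mean value of at least 1, at an adjusted p below 0.05, at a fold change of at least 2, with the NR description, without peroxidases and without each library. The number higher was 29 with the fold limit, 34 of 36 genes with the NR description (31 shared with the 35 members), 22 without peroxidases, and 32 to 33 under the others. The number lower was 2 under all of these but 0 without peroxidases, where the 2 genes themselves are left out. The median log2 fold change was 1.05 with a pseudocount of 1, where the table's median was 0.75, and the larger constant shrinks low genes. Leaving out each library in turn gave a median of 1.17 to 1.29, with 32 to 33 members higher and 2 lower. In the same fits the whole table had 1472 to 1501 genes higher and 996 to 1008 lower. With the replicate number as a block, which the pairing check did not call for, 32 members were higher and 2 lower, the median stayed 1.24, and the table had 1520 genes higher and 1018 lower. The check of named genes under 12 settings covered 52 genes, without those named after their values were seen. Only Peroxidase 3 (Lsat_1_v5_gn_3_43821) lost its call, in 2 of the settings. Its adjusted p from limma was 0.0172 without *LsAP2*-OE replicate 1 and 0.0121 with the replicate block, over a range of 0.00206 to 0.0172. No log2 fold change turned its direction. With a mean value of at least 1, Peroxidase 19 (Lsat_1_v5_gn_1_120340) was left out. The fits without a library leave 2 in that group. Depth is unknown, so no counting error can be given for the 23 members with a mean value under 5, and genes the authors did not call were not analysed here.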
